A study of Malus domestica with 6 samples.

Results

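The genes described here are 7 lipoxygenase (LOX) genes and 1 hydroperoxide lyase (HPL) gene of apple, out of 46558 genes in the deposited expression table. They are MdLOX-4 (MD02G1317800), MdLOX-5 (MD17G1167100), MdLOX-7 (MD11G1103700), MdLOX-8 (MD05G1156900), MdLOX-9 (MD13G1113800), MdLOX-10 (MD09G1069500), MdLOX-11 (MD04G1204000) and MdHPL (MD08G1038600). The study listed them as differing between Granny Smith and Jonagold, so they were chosen by the very expression values that are compared here. The difference between the cultivars is therefore given for these genes as a description, without a p-value. The study also measured MdLOX-8 and MdHPL by qRT-PCR and reported both as higher in Jonagold.

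Expression was measured by RNA-seq in fruit pulp of the green-skinned cultivar Granny Smith and the red-skinned cultivar Jonagold. Each cultivar had 3 libraries, and each library was made from the pooled pulp of several fruits. Both cultivars were unbagged, were grafted on the same rootstock in one orchard and were picked fully ripe. The study reported less internal ethylene and firmer flesh in Granny Smith. Cultivar and ripening physiology therefore cannot be told apart here. Values are FPKM, by definition a fragment count divided by transcript length and by the mapped reads of the library. Division by length allows levels to be compared between genes. The scaling between libraries did not follow the recovered reads, as given below. No gene names are paired with the identifiers in the table, and the names used here are those of the study's gene list. The label pulp was not checked against marker genes for the same reason.

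Lipoxygenases are dioxygenases that add oxygen to polyunsaturated fatty acids such as linoleic and linolenic acid. Hydroperoxide lyase, an enzyme of the cytochrome P450 superfamily, cleaves the resulting hydroperoxides into short aldehydes such as hexanal and an oxo-acid. Alcohol dehydrogenases (ADH) can reduce these aldehydes to alcohols, which alcohol acyltransferases (AAT) join to acyl groups to form esters, and these aldehydes, alcohols and esters are major parts of apple aroma. Lipoxygenase products also enter other routes, among them the synthesis of jasmonates. The sources used here do not sort the 7 lipoxygenases by the carbon they oxygenate, so no finer role is given for any of them.

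Depth was lower in every Jonagold library than in the Granny Smith libraries. Whole reads could be recovered from the FPKM values. They summed to 17081863 to 17259098 per library in Granny Smith and to 14193282 to 16353408 in Jonagold. The study also reported a lower share of mapped reads in Jonagold. The summed FPKM were higher in every Jonagold library, at 755644 to 800812, than in the Granny Smith libraries, at 554856 to 599617. A single read counted 1.29 to 1.46 times as much FPKM in the Jonagold libraries as in Granny Smith replicate 1. The recovered totals differ by less than this, so the deposited values were not scaled by these totals alone. How they were scaled was not tested, and every ratio of FPKM given here carries that scaling. Over the 20993 tested genes the median log2 fold change was 0.00, and it became -0.34 when the libraries were scaled to equal FPKM totals. All 8 genes had a higher mean in Jonagold under both scalings.

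The mean of every one of the 8 genes was higher in Jonagold than in Granny Smith. In 7 of them, all but MdLOX-4, each Jonagold library was above each Granny Smith library, and 30.4% of all tested genes were separated in this direction. The genes fell into 2 with very large differences, MdLOX-10 and MdLOX-11, and 6 whose mean FPKM differed by 2.15-fold (MdLOX-7) to 7.35-fold (MdLOX-5). In bulk pulp, fewer cells of a type and less RNA per cell cannot be told apart.

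**Figure D1:**
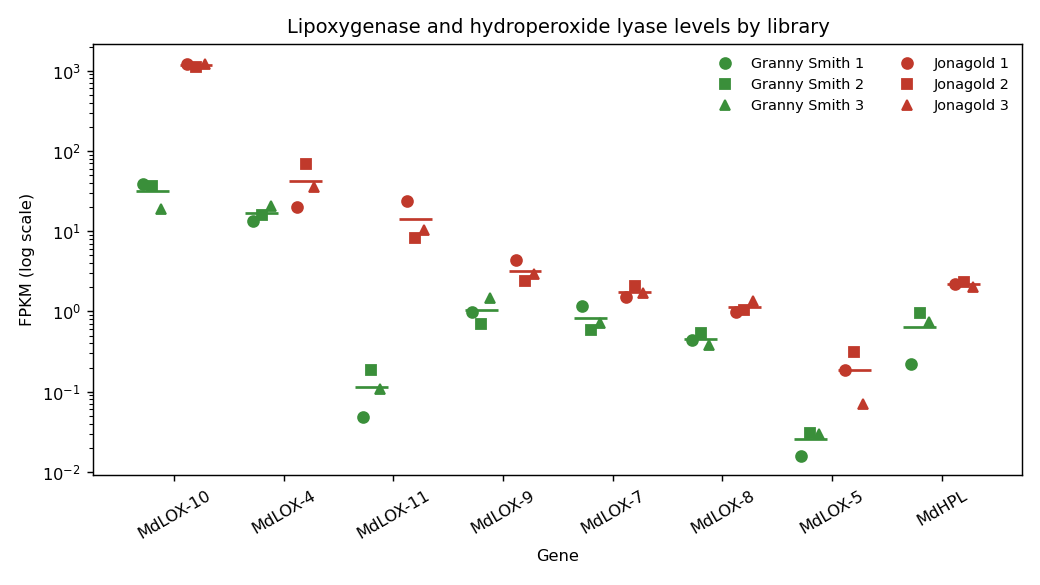
FPKM on a log axis for each of the 8 genes, with 1 point per library (green for Granny Smith, red for Jonagold, the marker shape for the replicate) and a line at the mean of each cultivar. MdLOX-10 lies at 1108 to 1226 FPKM in Jonagold and at 19.0 to 39.2 in Granny Smith, and MdLOX-4 is the gene in which the cultivars overlap.

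MdLOX-10, on chromosome 9, was the most abundant of the 8 genes on average in both cultivars. It measured 39.2, 36.9 and 19.0 FPKM in Granny Smith replicates 1, 2 and 3 and 1221, 1108 and 1226 FPKM in Jonagold replicates 1, 2 and 3. The Granny Smith libraries were all far below the Jonagold libraries, and replicate 3 stood lowest among them. The lowest Jonagold value was 28.2 times the highest Granny Smith value. The means were 31.7 ± 11.1 and 1185 ± 66.7 FPKM (SD, n = 3), a ratio of 37.4, and the log2 fold change on log2(FPKM + 1) was 5.24 (standard error 0.25). With equal FPKM totals the ratio was 28.5.

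The reads behind MdLOX-10 were many in both cultivars. They numbered 3345, 3289 and 1721 in Granny Smith and 72031, 73445 and 71661 in Jonagold. Scaled to the recovered reads of each library (RPM), these were 101 to 194 RPM in Granny Smith and 4491 to 5049 RPM in Jonagold. The lowest value, that of Granny Smith replicate 3, had a 95% Wilson interval of 96.1 to 106 RPM, which covers counting error only. Ordered by FPKM, MdLOX-10 held places 49 to 60 among all genes in the Jonagold libraries and places 2651 to 5157 in the Granny Smith libraries.

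MdLOX-11, on chromosome 4, changed its place among the 8 genes most. It was at 0.0490, 0.187 and 0.108 FPKM in the Granny Smith replicates and at 23.9, 8.11 and 10.2 FPKM in the Jonagold replicates. All Granny Smith libraries were near 0, and Jonagold replicate 1 stood above the other Jonagold libraries. These levels rest on 3, 12 and 7 reads in Granny Smith against 1012, 386 and 429 reads in Jonagold. The ratio of mean FPKM was 123, and it ranged from 79.9 without Jonagold replicate 1 to 180 without Granny Smith replicate 2. From the summed reads, 22 against 1827, scaled between libraries as the FPKM values are, the ratio was 119.8. Its 95% exact interval of 78.9 to 192 again covers counting error only. On log2(FPKM + 1), which shrinks changes that start near 0, the log2 fold change was 3.62 (standard error 0.33).

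MdLOX-4, on chromosome 2, was the second most abundant of these genes and varied most among its Jonagold libraries in absolute terms after MdLOX-10. It measured 13.4, 16.0 and 20.9 FPKM in Granny Smith and 19.7, 69.1 and 36.0 FPKM in Jonagold. Jonagold replicate 1 lay below Granny Smith replicate 3, so the cultivars overlapped. The means were 16.8 ± 3.81 and 41.6 ± 25.2 FPKM (SD, n = 3). The ratio of means was 2.48 and fell to 1.66 without Jonagold replicate 2, and the log2 fold change was 1.11 (standard error 0.39). With 424 to 1703 reads per library, counting error was small, at 3.21% of the mean in Jonagold, beside a coefficient of variation of 60.4%.

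MdLOX-9, on chromosome 13, was low in both cultivars. It measured 0.974, 0.698 and 1.45 FPKM in Granny Smith and 4.34, 2.40 and 2.96 FPKM in Jonagold. Its reads numbered 9 to 19 per library in the former and 23 to 37 in the latter. The cultivars did not overlap, and the lowest Jonagold library was 1.65 times the highest Granny Smith library. The ratio of means was 3.10, and the log2 fold change was 1.04 (standard error 0.22). Both Jonagold replicate 1 and Granny Smith replicate 3 were high within their cultivars.

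MdLOX-7, on chromosome 11, was the lipoxygenase with the smallest ratio of means, 2.15. Its values were 1.15, 0.590 and 0.708 FPKM in Granny Smith and 1.51, 2.07 and 1.68 FPKM in Jonagold. Granny Smith replicate 1 came closest to the Jonagold libraries, and without it the ratio was 2.71. From 94 and 142 summed reads, scaled as the FPKM values are, the ratio was 2.18 with a 95% exact interval of 1.67 to 2.86. The log2 fold change was 0.61 (standard error 0.18).

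MdLOX-8 and MdLOX-5 did not reach a mean of 1 FPKM over the 6 libraries and were left out of the test across genes. MdLOX-8, on chromosome 5, measured 0.434, 0.545 and 0.384 FPKM in Granny Smith and 0.981, 1.05 and 1.35 FPKM in Jonagold, with a ratio of means of 2.48. Every Jonagold library was above every Granny Smith library, by at least 1.80 times. The spread of MdLOX-8 within a cultivar, 18.2% in Granny Smith and 17.3% in Jonagold, was below the 24.0% and 18.4% that counting error alone gives at its 15 to 34 reads per library.

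MdLOX-5, on chromosome 17, was the least abundant of the 8 genes in both cultivars. Its values were 0.0160, 0.0306 and 0.0301 FPKM in Granny Smith and 0.185, 0.308 and 0.0700 FPKM in Jonagold. These stand for 1, 2 and 2 reads in Granny Smith and 8, 15 and 3 reads in Jonagold. From the summed reads, 5 against 26, scaled as the FPKM values are, the ratio was 7.50 with a 95% exact interval of 2.83 to 25.0. At this depth the size of the difference was thus known only within a wide range, although the cultivars did not overlap.

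MdHPL, on chromosome 8, was lower than MdLOX-10 and MdLOX-4 in every library. It measured 0.220, 0.963 and 0.741 FPKM in Granny Smith and 2.18, 2.31 and 2.02 FPKM in Jonagold. The Jonagold libraries lay close together, whereas Granny Smith replicate 1 was well below the other 2 Granny Smith libraries. The reads were 7, 32 and 25 in Granny Smith and 48, 57 and 44 in Jonagold. From these summed reads, 64 against 149, scaled as the FPKM values are, the ratio was 3.36 with a 95% exact interval of 2.49 to 4.57. The ratio of mean FPKM was 3.38, and 2.55 without Granny Smith replicate 1.

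**Figure D2:**
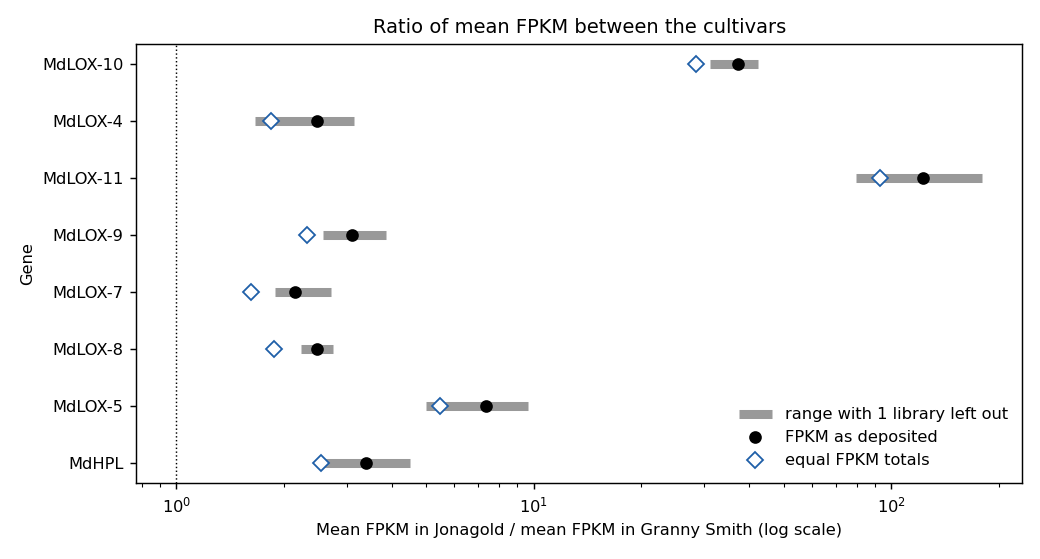
Ratio of mean FPKM, Jonagold over Granny Smith, on a log axis for each gene, with black points for the deposited values, grey bars for the range when each of the 6 libraries was left out, and open diamonds for equal FPKM totals. All values lie to the right of 1 (dotted line), from 1.62 for MdLOX-7 with equal totals to 180 for MdLOX-11 without Granny Smith replicate 2.

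Across all genes, limma on log2(FPKM + 1) was used, with p-values adjusted by the Benjamini-Hochberg method. A gene was called when it stood under 0.05 after adjustment and differed by 1 or more on that log2 scale. Of the 6 genes tested here, 4 were called, all higher in Jonagold, namely MdLOX-4, MdLOX-9, MdLOX-10 and MdLOX-11. The call of MdLOX-4 was lost under 9 of 12 alternatives, among them each library left out in turn except Jonagold replicate 1, no minimum mean, no variance trend, equal FPKM totals and quantile normalization. That of MdLOX-9 was lost under 4, namely without Granny Smith replicate 2, without Jonagold replicate 1, with equal FPKM totals and with quantile normalization. Over all tested genes the share called was 21.3%, and 12.0% were called higher in Jonagold. Nothing is read from this count, because the genes were chosen on the same contrast. Some of them, such as MdLOX-11, reached the minimum mean through their Jonagold libraries. The median log2 fold change of the 6 tested genes was 1.08, beside 0.00 for all tested genes.

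The genes just on either side of the fold change criterion were close to each other. MdLOX-9 stood at 1.04 and MdHPL at 0.98 (standard error 0.20), a gap smaller than either standard error. With equal FPKM totals 2 genes were called, MdLOX-10 and MdLOX-11, when 8.79% of all tested genes were called higher in Jonagold. Without the minimum mean all 8 genes entered the test and 3 were called, MdLOX-9, MdLOX-10 and MdLOX-11, when 8.05% of the 34279 genes above 0 were called higher. The log2 fold change in that fit was 0.54 for MdLOX-8 (standard error 0.12) and 0.21 for MdLOX-5 (standard error 0.08). MdLOX-10 and MdLOX-11 were called under each of the 12 alternatives tried.

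The order of the levels differed between the cultivars. In Granny Smith the mean FPKM fell from MdLOX-10 through MdLOX-4, MdLOX-9, MdLOX-7, MdHPL, MdLOX-8 and MdLOX-11 to MdLOX-5. MdLOX-10 and MdLOX-4 overlapped in their library values there, and so did each adjacent pair from MdLOX-9 to MdLOX-8. The adjacent pairs that did not overlap were MdLOX-4 with MdLOX-9, MdLOX-8 with MdLOX-11 and MdLOX-11 with MdLOX-5, the last of which rests on 1 to 12 reads per library. In Jonagold the order was MdLOX-10, MdLOX-4, MdLOX-11, MdLOX-9, MdHPL, MdLOX-7, MdLOX-8 and MdLOX-5. The adjacent pairs that overlapped in Jonagold were MdLOX-4 with MdLOX-11 and MdHPL with MdLOX-7.

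The composition of these 7 lipoxygenase genes, a part of the 12 that the study lists, was not the same in the 2 cultivars. MdLOX-10 made up 71.0%, 67.1% and 44.6% of the summed FPKM of the 7 lipoxygenase genes in the Granny Smith replicates, and 96.0%, 93.0% and 95.9% in the Jonagold replicates. MdLOX-4 made up 24.2%, 29.2% and 49.1% in Granny Smith and 1.55%, 5.80% and 2.82% in Jonagold. In Granny Smith replicate 3, MdLOX-4 was above MdLOX-10 in FPKM, at 20.9 against 19.0, but not in reads, at 703 against 1721, so this order rests on the division by length. MdLOX-10 led in the other 5 libraries. As a mean share of reads, not divided by length, MdLOX-4 made up 17.6% in Granny Smith and 1.30% in Jonagold, beside 34.2% and 3.39% of FPKM. MdLOX-11 made up 0.0887% to 0.341% of the Granny Smith sums and 0.681% to 1.88% of the Jonagold sums. Such shares do not depend on how the libraries are scaled against each other, but they do depend on the lengths used for FPKM.

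**Figure D3:**
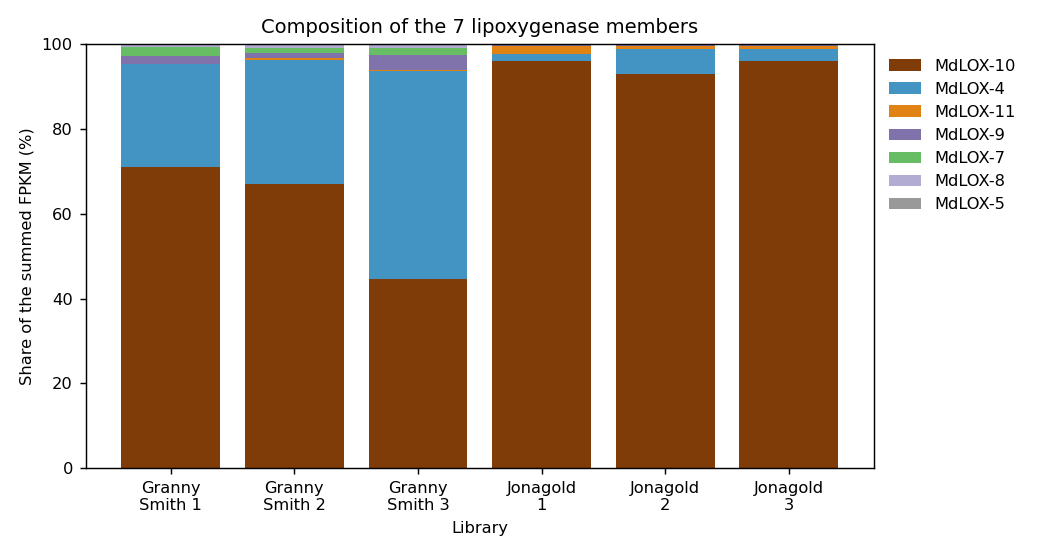
Share of each of the 7 lipoxygenase genes in their summed FPKM, in percent, as a stacked bar for each library. The MdLOX-10 part covers 44.6% to 71.0% of the Granny Smith bars and 93.0% to 96.0% of the Jonagold bars, and the MdLOX-4 part is widest, at 49.1%, in Granny Smith replicate 3.

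The summed FPKM of the 7 genes was 55.2, 55.0 and 42.6 in Granny Smith and 1271, 1191 and 1278 in Jonagold. Without MdLOX-10, the sum of the other 6 was 16.0, 18.1 and 23.6 in Granny Smith and 50.6, 83.1 and 52.3 in Jonagold, a ratio of means of 3.23 beside 24.5 with it. The study lists 12 lipoxygenase genes in all, and MdLOX-10 held 5.26% to 7.36% of their summed FPKM in the Granny Smith libraries and 27.3% to 29.9% in the Jonagold libraries. The sum of the 7 genes exceeded MdHPL by 57.1 to 251 times in the Granny Smith libraries and by 516 to 633 times in the Jonagold libraries. This separation depended on which lipoxygenases were summed. Over all 12 listed lipoxygenases, Granny Smith replicates 1, 2 and 3 stood at 2953, 520 and 487 times MdHPL. The Jonagold replicates stood at 2051, 1643 and 2033 times, so the cultivars overlapped. They also overlapped for the 6 genes without MdLOX-10, with Granny Smith replicates at 72.7, 18.8 and 31.8 against 23.2, 36.0 and 25.9 for Jonagold. The highest Granny Smith value of each sum belongs to replicate 1, in which MdHPL rested on 7 reads.

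Replicates of the same cultivar differed to unequal degrees among these genes. In Jonagold the coefficient of variation was 5.63% for MdLOX-10 and 6.65% for MdHPL, but 60.4% for MdLOX-4, 60.9% for MdLOX-11 and 63.5% for MdLOX-5. The median over all tested genes was 14.5% in Jonagold and 13.7% in Granny Smith. In Granny Smith all 8 genes were above that median, from 18.2% for MdLOX-8 to 60.6% for MdLOX-11. Several of them rest on few reads there. Counting error alone gives 77.5% for MdLOX-5 and 24.0% for MdLOX-8, more than their spreads of 32.4% and 18.2%. It gives 36.9% for MdLOX-11 and 27.4% for MdLOX-9, whose spread was 36.6%. For MdLOX-10 the spread was wider in Granny Smith, 34.9%, than in Jonagold, and counting error, at 1.90% and 0.372%, was far below both. For MdHPL the spread of 59.4% in Granny Smith was above its counting error of 21.7%, and that in Jonagold was below its counting error of 14.2%. The difference in spread between the cultivars was not tested, since each has 3 libraries.

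**Figure D4:**
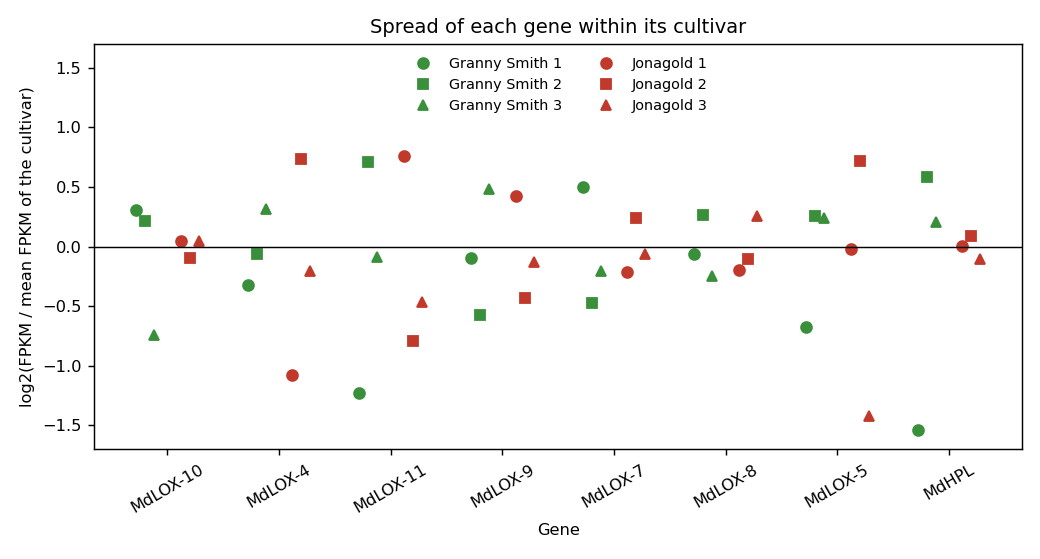
Deviation of each library from the mean of its cultivar, as log2(FPKM / mean FPKM of the cultivar), for each of the 8 genes, with green for Granny Smith, red for Jonagold and the marker shape for the replicate. The lowest points are Granny Smith replicate 1 for MdHPL (-1.54) and MdLOX-11 (-1.23) and Jonagold replicate 3 for MdLOX-5 (-1.42), and no library is high or low for all genes.

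The libraries that stood apart were not the same from gene to gene. Granny Smith replicate 1 was the lowest of its cultivar for MdLOX-4, MdLOX-5, MdLOX-11 and MdHPL and the highest for MdLOX-7 and MdLOX-10. Granny Smith replicate 3 was the lowest for MdLOX-10 and MdLOX-8 and the highest for MdLOX-4 and MdLOX-9. In Jonagold, replicate 1 was the highest for MdLOX-11 and MdLOX-9 and the lowest for MdLOX-4, MdLOX-7 and MdLOX-8, while replicate 2 was the highest for MdLOX-4 and the lowest for MdLOX-11 and MdLOX-10. With 3 libraries per cultivar, no relation between the genes across libraries could be tested.

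The identifiers give the order of genes along each chromosome, which was not used to choose the 8 genes. They lie on 8 different chromosomes. Of the 80 genes within 5 places of one of them, 28 were tested and 7 were called, 25.0% beside 21.3% of all tested genes. The median log2 fold change of these neighbours was 0.03. Of the 7 called, 4 lay around MdLOX-10, 2 around MdLOX-8 and 1, lower in Jonagold, around MdHPL. Those around MdLOX-8 include MdLOX-6, a lipoxygenase that the study also listed for its difference between these cultivars.

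The region of MdLOX-10 was singled out after these values were seen. Of its 10 neighbours 5 were tested, and 4 of them were called, all higher in Jonagold. Their log2 fold changes ran from 1.26 (standard error 0.16) to 3.40 (standard error 0.18), given as a description without p-values. These 4 genes lie 4 places before and 2, 3 and 5 places after MdLOX-10. The gene at 3.40 measured at most 0.146 FPKM in Granny Smith, against a mean of 10.2 FPKM in Jonagold. It thus reached the minimum mean through its Jonagold libraries. The gene directly before it measured at most 0.0560 FPKM and the gene directly after it at most 0.381 FPKM in any library, so the called neighbours were not the ones adjacent to MdLOX-10. The remaining tested neighbour was lower in Jonagold by 0.70 on the log2 scale, short of the fold change criterion. The files and tables used here give no names for these neighbours.

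**Figure D5:**
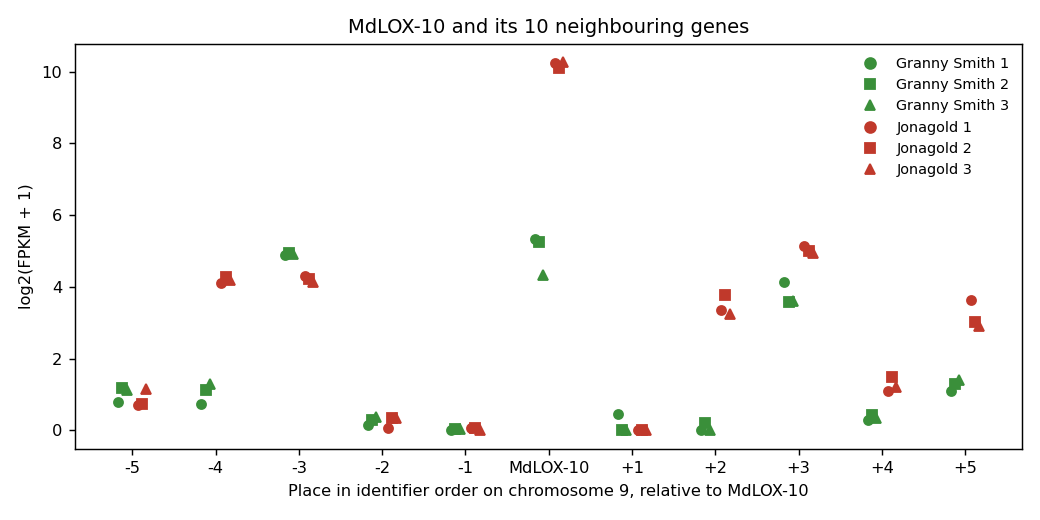
Level as log2(FPKM + 1) of MdLOX-10 and of the 5 genes on either side of it in identifier order on chromosome 9, with 1 point per library (green for Granny Smith, red for Jonagold). The genes at places -4, +2, +3 and +5 were the 4 called, each higher in Jonagold, by 3.13, 3.40, 1.26 and 1.93 on the log2 scale, and the genes directly beside MdLOX-10 are near 0.

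MdLOX-8 has another lipoxygenase of the study's list, MdLOX-6 (MD05G1157000), as its next listed gene on chromosome 5. MdLOX-6 measured 4.56, 4.55 and 3.64 FPKM in Granny Smith and 11.3, 9.38 and 10.4 FPKM in Jonagold. It was therefore about an order of magnitude above MdLOX-8 in each library, by 8.34 to 10.5 times in Granny Smith and by 7.71 to 11.5 times in Jonagold. The ratio of means between the cultivars was 2.44 for MdLOX-6 and 2.48 for MdLOX-8. How reads that match both genes were assigned is not given in the sources used here, so the low level of MdLOX-8 is uncertain.

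The other genes of the pathway on the study's list are 5 further lipoxygenases, 1 fatty acid desaturase (FAD), 7 ADH genes and 10 AAT genes. These 23 genes were also listed for their difference between these libraries, so their counts are not independent evidence. Of the 20 that were tested, 12 were called higher and 7 lower in Jonagold. All 4 tested lipoxygenases and 7 of 8 tested AAT genes were called higher, while the FAD gene and 6 of the 7 ADH genes were called lower. The largest difference upward was that of MdAAT-5 (MD13G1109300), called at 6.64 on the log2 scale (standard error 0.43), and the largest downward on log2(FPKM + 1) that of MdADH-3 (MD10G1013800), called with -4.24 (standard error 0.21). By the ratio of mean FPKM, which has no pseudocount, MdADH-1 (MD10G1014500), named after its values were seen, was lower still, at 0.00524 of its Granny Smith mean against 0.0103 for MdADH-3. MdLOX-10 lay between MdAAT-5 and MdADH-3 at 5.24, and MdHPL, the step between the lipoxygenases and the ADH genes, at 0.98.

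The profile of MdLOX-10 over the 6 libraries was compared with those of the 8888 genes, itself included, whose mean reached 10 FPKM. As a measure of likeness, each profile of log2(FPKM + 1) was centred on its own mean and the root mean square difference to MdLOX-10 was taken. The closest were MD16G1019900 on chromosome 16, at 0.26, and MD09G1201100 on chromosome 9, also at 0.26. MD16G1019900 measured 2.32 to 3.87 FPKM in Granny Smith and 109 to 153 FPKM in Jonagold. MD09G1201100 measured 0.895 to 1.44 and 71.3 to 77.1 FPKM. Both were chosen for their likeness over these same libraries, and both reached a mean of 10 FPKM through Jonagold. Both were lowest in Granny Smith replicate 3, as was MdLOX-10, so nothing is read from that. Within Jonagold the order differed. MdLOX-10 was lowest in replicate 2, MD16G1019900 in replicate 3 and MD09G1201100 in replicate 1.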

How the data were processed

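Pulp RNA-seq of 3 Granny Smith and 3 Jonagold libraries was analysed, grouped by sample title. Per the study's methods, the authors removed adaptors and poor reads, aligned the rest to the GDDH13 apple assembly and ran Cufflinks. They deposited FPKM values, 1 column for each library. The submitters' processing notes name mouse genome builds instead, which do not match the organism. All 6 columns were used.

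The deposited FPKM values keep the steps of single reads. For 34278 of 34279 genes above 0 they gave whole reads within 0.01 reads, though a common divisor of all counts of a gene would go unseen. Their totals were 14193282 to 17259098 per library. Intervals (95%, Wilson or exact) cover counting error only, since the reads had no molecular identifiers. Ratios from summed reads were scaled by the FPKM that a single read counts in each library, not by the read totals. They are therefore not a separate check on the scaling of the FPKM ratios.

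The cultivars were compared by limma 3.58.1 (lmFit, eBayes with trend) in R 4.3.3 on log2(FPKM + 1), for the 20993 genes whose mean reached 1 FPKM. Benjamini-Hochberg adjustment covered all tested genes. Called genes had an adjusted p-value under 0.05 and a log2 fold change of 1 or more in either direction. The study's own count test was not run here. As alternatives, each library was left out in turn, and fits were made with the replicate block, no minimum mean, a pseudocount of 0.1, equal FPKM totals, quantile normalization, no trend and, for shares, reads not divided by length. Recovery and test were checked on simulated data, with larger changes than those of MdLOX-4, MdLOX-7, MdLOX-8, MdLOX-9 and MdHPL. The simulation thus does not show how well changes of that size are called. Python 3.11.15 was used for the rest. The p-values behind the calls set the difference between the cultivars against the spread between fruit pools, moderated across genes, with 3 pools per cultivar.

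The members, lists and alternatives were chosen with earlier results of these data known. Besides the 8 members, the rule named MdLOX-6, the other pathway genes with the highest and lowest fold change, and the 2 genes most like MdLOX-10. The neighbours of MdLOX-10 were singled out after their values were seen, as were MdLOX-1, MdLOX-2, MdLOX-3 and MdADH-1.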

Additional observations from a re-analysis of the deposited data

How the results depend on the processing

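Limits and alternatives are given here together. With the replicate number as a block, 4501 genes were called against 4475 without it, and the same 4 of the 8 genes described here. Same-numbered libraries deviated from their cultivar means with correlations of 0.16, 0.28 and -0.03 over 20993 genes, so the numbers were not taken as pairs. The number of the 8 genes called went from 4 to 2 with equal FPKM totals and with quantile normalization, and to 6 with a pseudocount of 0.1. With equal FPKM totals, which lower the Jonagold values relative to the others, the calls split into 1845 higher and 3362 lower in Jonagold, against 2515 and 1960 with the deposited values. For quantile normalization the cause was not tested. With each library left out in turn, 3 to 4 of the 8 genes, 19 to 20 of the other pathway genes, 7 to 9 of the neighbouring genes and 4346 to 4607 of all genes were called. MdLOX-4 was then called only without Jonagold replicate 1, with log2 fold changes from 0.66 to 1.54. MdLOX-9 was not called in 2 of these fits, at 0.92 (Granny Smith replicate 2 left out) and 0.86 (Jonagold replicate 1 left out), and MdHPL was called in 3 of the 6 such fits, at 1.12 and 1.03 with Granny Smith replicates 2 and 3 left out and at 1.01 with Jonagold replicate 3 left out. The log2 fold changes of the 6 tested genes kept their direction under all 12 alternatives, and the ratios of all 8 genes did so with each library left out and with equal FPKM totals, the alternatives run for them. As a share of reads, not divided by length, MdLOX-10 made up 80.2% of the 7 lipoxygenases in Granny Smith and 97.7% in Jonagold, against 60.9% and 95.0% of FPKM. Depth limits MdLOX-5 and, in Granny Smith, MdLOX-11, MdLOX-9, MdLOX-8 and MdHPL.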

Other observations

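The recovered reads also give the relative length by which each gene's reads were divided. In Granny Smith replicate 1, a single read counted 0.0117 FPKM in MdLOX-10, 0.0160 in MdLOX-5, 0.0163 in MdLOX-11, 0.0268 in MdLOX-7, 0.0271 in MdLOX-8, 0.0315 in MdHPL, 0.0316 in MdLOX-4 and 0.0811 in MdLOX-9. If FPKM was divided by gene length as defined, the length used for MdLOX-10 was 6.92 times that of MdLOX-9 and 2.69 times that of MdLOX-4. The FPKM of MdLOX-9 thus rests on few reads over a short length, and its place above MdLOX-7 and MdLOX-8 does not hold in reads. MdLOX-9 had 40 reads in the 3 Granny Smith libraries, against 94 for MdLOX-7 and 52 for MdLOX-8. Whether the gene model of MdLOX-9 is complete was not tested.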
